A study of Mus musculus with 24 samples.

Results

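Box C/D small nucleolar RNAs (snoRNAs) encoded inside protein-coding genes other than those of ribosomal proteins were examined in small RNA libraries of mouse embryonic stem cells (mESC) and of the neural progenitor cells (NPC) derived from them. A member is a row of the count table that GENCODE annotates as snoRNA, has no H/ACA name (Snora), spans under 100 bases, lies whole and on the same strand inside a coding gene, lies in no gene of a ribosomal protein, and has 20 or more counts over the 24 libraries. Snord49a, Snord49b and Snord65 were left out by the same rule. These criteria were met by 28 of 1507 snoRNA rows, in a table of 55335 rows. The 28 members held 3890605 counts, 15.5% of all counts, and lay in 21 host genes. The members were chosen by their summed counts, so that their being detected is not a result.

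The series holds 12 groups of 2 libraries. In each cell type there are wild-type Htt cells (WT), Htt knockout cells (KO), and heterozygous knock-in lines titled Q20, Q50, Q92 and Q111 for the number of CAG repeats in the Htt gene, which encodes huntingtin. The growth protocol gives 89 repeats for the line titled Q92. The mESC were grown with leukemia inhibitory factor on irradiated mouse fibroblast feeders, and the NPC were made from mESC in N2B27 medium and then kept in medium with FGF and EGF. The series' design calls the 2 libraries of a group biological samples but does not say whether they came from separate cultures or differentiations, so p-values measure the spread between these libraries. The labels do not say whether a genotype is 1 clone or several, so a difference between genotypes cannot be told apart from a difference between clones. In bulk RNA, fewer cells of a type and less RNA per cell cannot be told apart.

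Box C/D snoRNAs guide 2′-O-methylation of ribosomal and spliceosomal RNA. They carry a C box near the 5′ end and a D box near the 3′ end, the terminal boxes around which the proteins fibrillarin, Nop56, Nop58 and Snu13 assemble, and the stretch upstream of a D box or of an internal copy of it pairs with the target RNA. In mammals most are cut out of the introns of host genes, many of which serve ribosome production or translation.

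The sequences of the most abundant members and of pairs that share a host show this structure, read from the GRCm38 genome. Capitals mark the core of the C box (TGATG, sought from the first 20 bases) and the D box (CTGA, sought in the last 17 bases).
Snord82: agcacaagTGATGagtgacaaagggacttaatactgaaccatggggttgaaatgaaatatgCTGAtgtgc
Gm24494: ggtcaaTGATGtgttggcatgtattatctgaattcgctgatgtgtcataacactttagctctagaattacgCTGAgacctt
Snord59a: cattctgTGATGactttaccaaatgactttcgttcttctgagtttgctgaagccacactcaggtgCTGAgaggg
Snord70: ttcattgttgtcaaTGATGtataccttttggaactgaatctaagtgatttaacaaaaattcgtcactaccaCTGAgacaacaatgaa
Gm26287: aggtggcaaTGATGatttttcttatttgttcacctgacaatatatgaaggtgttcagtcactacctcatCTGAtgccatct
Snord11: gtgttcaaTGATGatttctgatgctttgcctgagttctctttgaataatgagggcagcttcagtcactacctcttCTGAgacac
Snord53: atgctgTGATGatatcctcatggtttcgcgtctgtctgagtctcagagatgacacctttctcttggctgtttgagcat
Gm22858: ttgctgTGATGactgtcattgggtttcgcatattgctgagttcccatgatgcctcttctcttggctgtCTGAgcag
Gm24339: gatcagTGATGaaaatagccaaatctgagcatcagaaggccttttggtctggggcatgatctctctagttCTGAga
Scarna9: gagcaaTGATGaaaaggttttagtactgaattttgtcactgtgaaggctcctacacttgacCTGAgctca

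On the GRCm38 build, Snord82 lies at chr1:86356261-86356330 in intron 5 of Ncl (nucleolin, a nucleolar protein). Gm24494 lies at chr3:153911610-153911690 in intron 2 of Rabggtb (a subunit of Rab geranylgeranyl transferase), and Snord59a at chr10:128084143-128084216 in intron 2 of Atp5b (a subunit of ATP synthase). Snord70 at chr1:59691934-59692020, Gm26287 at chr1:59704258-59704338 and Snord11 at chr1:59704790-59704873 lie in introns 2, 8 and 9 of Nop58, whose protein is a core part of the C/D particle. Snord53 at chr17:71640879-71640956 and Gm22858 at chr17:71641584-71641659 lie in introns 9 and 10 of Wdr43, a gene of ribosome production. Gm24339 at chr9:15326464-15326539 and Scarna9 at chr9:15326264-15326333 share intron 19 of Cep295 (a centriole protein). Scarna9 carries the symbol of a small Cajal body RNA, a class that guides modification of spliceosomal RNA.

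The members were 64 to 93 bases long, with a median of 76.5. The C core was found in 26 of the 28, the D box in 27, and both in 25 (89.3%). Snord53 had no CTGA in its last 17 bases. Among rows with 20 or more counts, both boxes were found in 95% of 20 snoRNAs in ribosomal protein genes, in 76.2% of 21 outside coding genes (Snord49a, Snord49b and Snord65 among them), and in 0 of 17 with H/ACA names. The boxes were sought in forms chosen after the sequences were seen. The libraries hold single reads shorter than every member, so a count may stand for a fragment as well as for a whole snoRNA.

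A further stretch of sequence was shared by 4 members. Directly upstream of a CTGA, with at most 3 bases between, Snord59a, Snord110, Snord98 and Snord61 each held at least 12 bases in a row complementary to Gm42418, an annotated gene that holds 18S ribosomal RNA sequence. Capitals mark the complementary run.
Snord59a: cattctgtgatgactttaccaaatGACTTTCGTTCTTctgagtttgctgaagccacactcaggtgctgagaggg
Snord110: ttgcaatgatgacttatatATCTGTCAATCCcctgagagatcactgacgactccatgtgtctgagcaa
Snord98: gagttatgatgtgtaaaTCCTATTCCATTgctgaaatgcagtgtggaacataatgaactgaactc
Snord61: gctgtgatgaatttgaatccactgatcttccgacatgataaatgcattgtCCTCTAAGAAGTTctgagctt
Such a run was present in 14.3% of members, in 0 of 20 snoRNAs of ribosomal protein genes, in 0 of 18 outside coding genes (without those 3), in 0 of 17 with H/ACA names, and in 0.796% of all 1507 snoRNA rows. A match is a description of the letters and does not show that the site is modified. Only Gm42418 was searched, so runs complementary to ribosomal RNA sequence outside it would be missed, in members and other classes alike. The shares therefore do not show which snoRNAs lack a ribosomal RNA complement.

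Counts were very unequal among the members. Snord82 had 1018261 counts over the 24 libraries, Gm24494 had 963122 and Snord59a had 581435. These 3 made up 65.9% of the members' counts, and the 10 highest made up 91.8%. A count was present in every library for 26 members. The lowest members were Gm26457 in Eef1b2, with 61 counts, and Gm24920 in Pip5k1a, with 204. Just below the minimum were Gm24431 with 17 counts, Gm22192 with 16, Gm25632 with 12 and Gm22771 with 10. Of the 30-base stretches of Gm24920, 46.4% recur in Gm22192 and Gm25632. For Snord88c 26.2% recur in Snord88a, so the counts of both are uncertain.

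**Figure D1:**
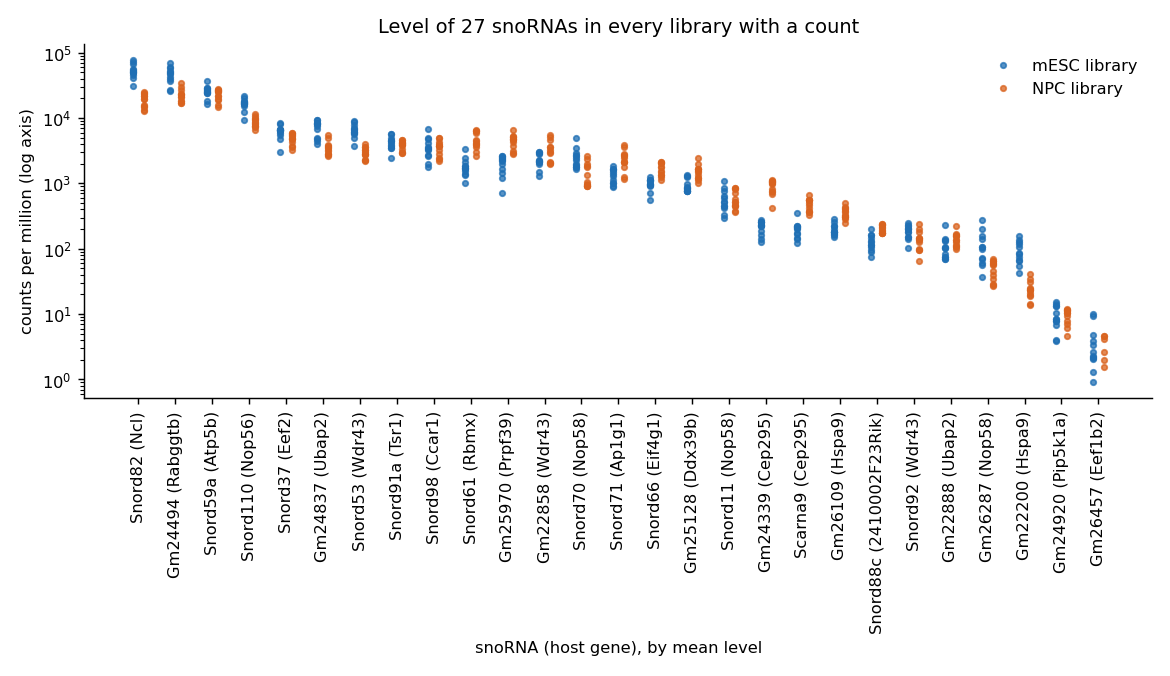
Level of 27 members in CPM (counts scaled to a common library size) on a log axis, 1 point per library with a count, blue for 12 mESC and orange for 12 NPC libraries, ordered by mean level. Snord82, Gm24494 and Snord59a lead, and Gm26457 and Gm24920 are lowest.

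Several hosts had a further snoRNA row at 0 counts in all 24 libraries beside an abundant member. Rabggtb held Gm24494 with 963122 counts, while Snord45b and Snord45c in the same gene were at 0. Nop56, a core protein gene of the C/D particle, held Snord110 with 340042 counts, while Snord57, Gm23187 and Gm23650 were at 0. All 5 of these rows at 0 lie whole within an exon that another transcript of the host or another gene gives to the same strand.

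This held widely among the 84 rows that meet the rule but for the count minimum. Of these, 37 overlapped a same-strand exon annotated for the host or another gene by more than 1 base. Of those 37 rows, 36 had 0 counts, with overlaps of 35 to 97 bases, and the other was Gm26457 with 61 counts. Among the 46 rows with no overlap, 26 were members and 14 had 0 counts. Both boxes were found in 2 of these 14. Of the 14, 11 shared at least some 30-base stretches with another gene, and 6 of them shared all. The submitters' processing notes name HTSeq, which by default leaves out reads that fall on more than 1 gene, but its settings are not given in the sources used here, and its part in these rows at 0 was not tested. The other 3 of these 14 rows, and 4 rows with 1 to 17 counts, had neither an overlap nor a shared stretch.

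**Figure D2:**
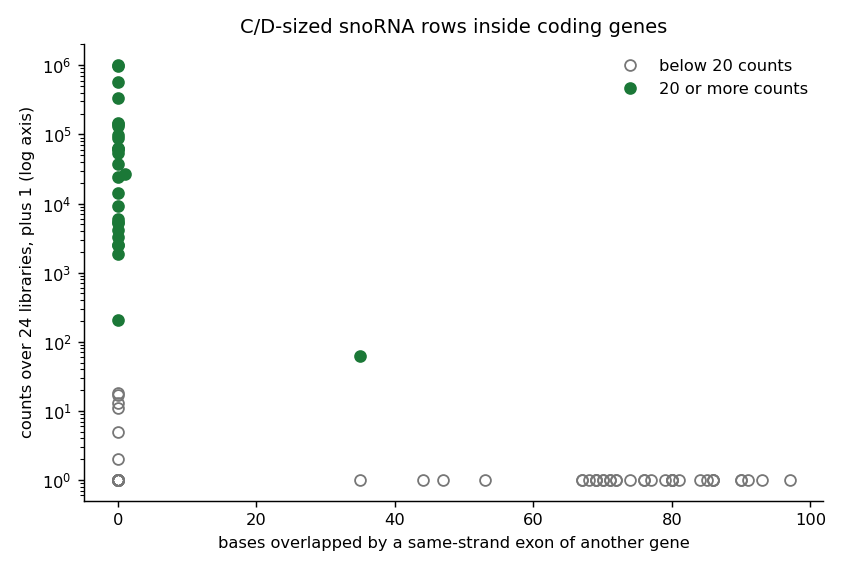
Counts over 24 libraries plus 1, on a log axis, against the bases of each of 84 snoRNA rows that a same-strand exon overlaps, filled for the 28 members. Rows with an overlap of over 1 base lie at 0 counts but for Gm26457.

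Library totals were 642384 to 2360434 counts in mESC and 342022 to 682113 in NPC. The members took 16.2% ± 2.04 (SD, n = 12) of a library in mESC and 12.7% ± 1.64 (SD, n = 12) in NPC. Of snoRNA counts alone, they took 25.1% ± 2.61 (SD, n = 12) in mESC and 23.9% ± 1.64 (SD, n = 12) in NPC. One mESC library stood apart: Snord82 made up 48.5% of the members' counts in Q50 replicate 2, 22.8% in Q50 replicate 1, and at most 32.7% in the other mESC libraries. The Y RNA Rny1 took 0.644% to 1.65% of a library in mESC and 13.0% to 40.3% in NPC. Levels are given as CPM, counts times 1e6 over the library total scaled by the trimmed mean of M values (TMM). For CPM, TMM was estimated over all libraries of both cell types. Fits within a cell type estimated it anew on their own libraries, so their log2 changes can differ from ratios of CPM. The summed embryonic stem cell markers were at 996 to 2514 CPM in mESC and at 0 to 3.91 CPM in 10 NPC libraries, but at 333 and 334 CPM in both Q20 NPC libraries. Their part in the comparisons with Q20 was not tested, and WT is given as another control there. Of the stem cell markers, the microRNA gene Mir293 alone averaged 1313 CPM in mESC. Summed NPC markers were at 9.95 to 20.8 CPM in mESC and 238 to 461 CPM in 10 NPC libraries, but at 192 and 177 CPM in both Q20 NPC libraries. The part of these lower NPC markers in the comparisons with Q20 was not tested either. Feeder fibroblast markers were at 7.68 to 27.1 CPM in mESC and 1.50 to 15.6 CPM in NPC. Htt itself had 1 to 3 counts in the 4 KO libraries and 0 to 9 in the 20 others, so these data do not check the knockout.

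NPC were first compared with mESC, which asks how the members differ between the cell types over all 6 lines. Of 27 members tested, 21 changed, 11 higher and 10 lower in NPC, beside 58.4% of all 904 genes tested (30.4% higher, 28% lower). The members' median log2 change was -0.05, and that of all genes tested was -0.02. A call means an edgeR quasi-likelihood adjusted p under 0.05 over all genes tested. With the sum of snoRNA counts as the library size, 17 were higher and 7 lower, and the median of all genes rose by 0.62, against 0.34 with plain library totals. Calls in the same direction under all 4 scalings numbered 11 higher and 7 lower. Snord37 in Eef2 (elongation factor 2), at -0.40 ± 0.14 (SE), turned to 0.24 and was called higher with the snoRNA sum. The calls of Snord92 and Snord70 were lost under at least 1 scaling.

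The lower members included some of the most abundant. Snord82 in Ncl ranged from 30627 over a median of 51770 to 76899 CPM in mESC, and from 12992 over 19299 to 24790 CPM in NPC. The 12 NPC libraries all lay below the 12 mESC libraries. Its mean was 2.85-fold lower in NPC, and it fell by 1.53 ± 0.12 on the log2 scale (SE, edgeR adjusted p = 2.06e-10). Without mESC Q50 replicate 2, in which it was at its highest, Snord82 fell by 1.44 (edgeR adjusted p = 2.77e-11). Snord110 in Nop56 ranged from 9431 over 16964 to 21530 CPM in mESC, and from 6584 over 8585 to 11650 CPM in NPC. Its groups overlapped, and it fell by 0.91 ± 0.11 (SE) on the log2 scale (edgeR adjusted p = 3.17e-07). Snord53 in Wdr43 fell by 1.13 ± 0.12 (SE) on the log2 scale (edgeR adjusted p = 1.77e-08).

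Gm24494 in Rabggtb had mESC values of 25682, 48193 and 70494 CPM (lowest, median, highest) and NPC values of 16904, 21946 and 33743 CPM. The groups overlapped, and it fell by 1.04 ± 0.13 on the log2 scale (SE, edgeR adjusted p = 3.37e-07). Snord59a in Atp5b had 16285, 25734 and 36880 CPM in mESC and 14834, 23323 and 27343 CPM in NPC. Its log2 difference of -0.21 ± 0.10 (SE) did not pass the test (edgeR adjusted p = 0.0810), but it was called higher, at 0.42, with the snoRNA sum as library size. Snord91a in Tsr1 (a ribosome maturation factor) had a log2 difference of -0.16 ± 0.11 (SE, edgeR adjusted p = 0.235), and Snord98 in Ccar1 one of -0.05 ± 0.17 (SE, edgeR adjusted p = 0.812).

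The highest rise in NPC was that of Gm24339. Gm24339 in Cep295 ranged from 125 over 227 to 272 CPM in mESC and from 426 over 995 to 1143 CPM in NPC, with no overlap. It rose by 2.10 ± 0.16 on the log2 scale (SE, edgeR adjusted p = 1.02e-10). Gm25970 in Prpf39 (a splicing factor of the U1 particle) ranged from 710 over 2218 to 2617 CPM in mESC and from 2836 over 4736 to 6589 CPM in NPC, again with no overlap. It rose by 1.13 ± 0.17 (SE, edgeR adjusted p = 6.90e-06). Snord61 in Rbmx (an RNA-binding protein of splicing) rose by 1.28 ± 0.15 (SE), Scarna9 by 1.25 ± 0.17, and Snord71 in Ap1g1 (a clathrin adaptor subunit) by 0.80 ± 0.12. Snord66 in Eif4g1 (a translation initiation factor) rose by 0.77 ± 0.11. The mESC and NPC values of these last 4 members overlapped.

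Groups did not overlap for 4 of 27 members, Snord82 and Gm22200 lower and Gm25970 and Gm24339 higher, beside 11% of all genes tested. All 4 were called when any 1 library was left out, mESC Q50 replicate 2 among them. Gm22200, in Hspa9 (a mitochondrial chaperone), went from a median of 83.7 CPM in mESC to 23.4 CPM in NPC, and fell by 1.96 ± 0.22 on the log2 scale (SE, edgeR adjusted p = 7.87e-08). Its counts were low, at 38 to 352 per library in mESC and 5 to 20 in NPC.

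**Figure D3:**
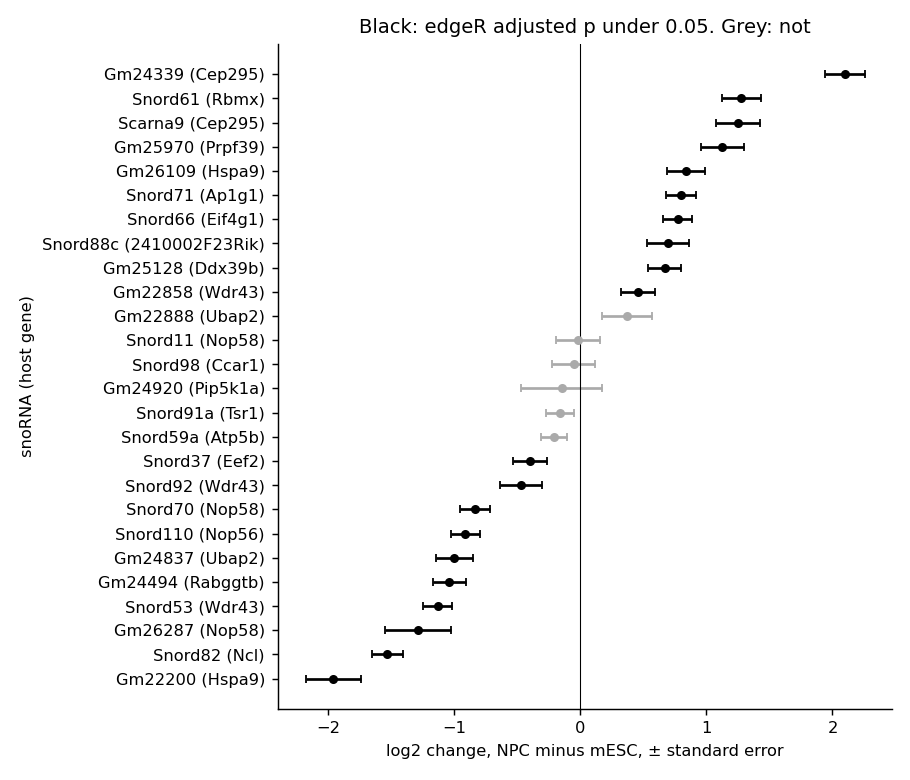
Log2 change of 26 tested members, mean of 6 NPC groups minus mean of 6 mESC groups, with its standard error, black where the edgeR adjusted p is under 0.05. Members run from Gm22200 at -1.96 to Gm24339 at 2.10, and members of Wdr43, Hspa9 and Nop58 lie apart from each other.

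Few host messages could be compared, since these are small RNA libraries. Of 21 host genes, 8 were tested, and 4 were lower and 0 higher in NPC: Nop58 at -2.13, Ncl at -1.47, Hspa9 at -0.79 and Eef1b2 at -0.68 on the log2 scale. Of a list of 20 genes of the C/D particle and its assembly, 1 was tested, which was Nop58 again. Nop58 had 12 to 32 counts per library in mESC and 0 to 5 in NPC. Of the snoRNAs in ribosomal protein genes, 15 of 19 tested were lower and 1 higher, and of those outside coding genes 12 of 15 were lower and 1 higher. Those with H/ACA names moved both ways, as the members did: of 14 tested, 5 were lower and 4 higher. The difference between classes was not tested. These directions of hosts and classes are from the TMM scaling alone. With the snoRNA sum as library size the median of all genes rose by 0.62, and hosts and classes were not counted under that scaling.

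Members of the same host lie in introns of the same gene, and which of its transcripts each came from was not tested. Their levels were compared as a ratio within each library, which no scaling moves. The 5 hosts with several members gave 9 pairs. The mean log2 ratio of the 2 libraries of a line was compared between NPC and mESC over the 6 lines by a two-sided exact permutation test that flips signs, whose smallest p with 6 lines is 0.03125. These ratios were chosen after the data were seen. In 7 of 9 pairs the ratio differed in all 6 lines in the same direction (exact permutation p = 0.03125, adjusted over the 9 pairs 0.0402). In Wdr43 and Nop58 each ratio is fixed by the other ratios of its host, so the 9 pairs are not independent. Pairs of members from different hosts were not compared, so the count does not set pairs of one host apart from other pairs.

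In Wdr43, Snord53 was at 2.88 times Gm22858 in mESC (geometric mean, range 2.20 to 4.14) and at 0.940 times in NPC (0.578 to 1.73). The log2 ratio fell by 1.61 ± 0.48 (SD, n = 6 lines). Snord92 over Gm22858 fell by 0.93 ± 0.19 (SD, n = 6 lines). Snord92 over Snord53 differed by 0.68 ± 0.52 (SD), with 5 of 6 lines higher, and did not pass (exact permutation p = 0.0625). Snord53 and Gm22858 lie in neighbouring introns, and Snord53 fell while Gm22858 rose by 0.46 ± 0.13 (SE, edgeR adjusted p = 0.00590). The change of each member alone, unlike the ratio, can move with the scaling and the filter on low counts.

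In Hspa9, Gm22200 was at 0.442 times Gm26109 in mESC and at 0.0654 times in NPC. The log2 ratio fell by 2.76 ± 0.64 (SD, n = 6 lines), more than in the other 8 pairs. Gm22200 had only 5 to 20 counts per NPC library, so the size of this change rests on few counts. In Nop58, Snord70 over Snord11 fell by 0.86 ± 0.23 (SD) and Gm26287 over Snord11 by 1.16 ± 0.30 (SD). Gm26287 and Snord11 share the run ttcagtcactacctc just upstream of the D box, 15 bases, the longest run found in the 378 pairs of members. Snord70 over Gm26287 differed by 0.30 ± 0.35 (SD), with 5 of 6 lines higher (exact permutation p = 0.094), and turned to -0.20 without replicate 1.

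In Cep295, Scarna9 over Gm24339 fell by 0.79 ± 0.33 (SD, n = 6 lines), although each rose. In Ubap2 (a ubiquitin-associated protein), Gm22888 over Gm24837 rose by 1.37 ± 0.51 (SD, n = 6 lines). The Cep295 pair missed the threshold without replicate 2 (-0.54, exact permutation p = 0.0625), and the Ubap2 pair without replicate 1 (0.77, exact permutation p = 0.0625).

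**Figure D4:**
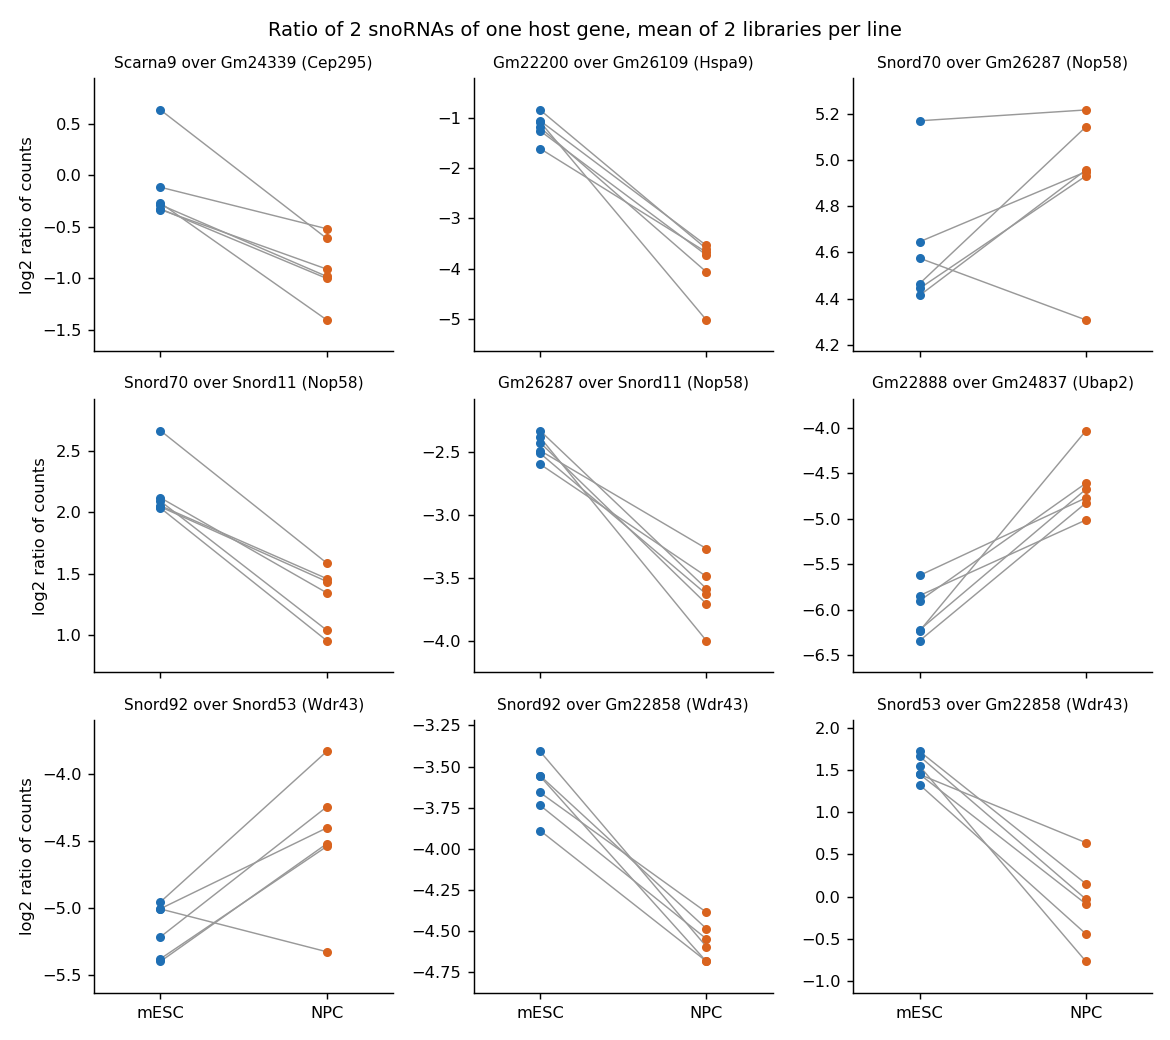
Log2 ratio of the counts of 2 members of a host, mean of 2 libraries, with a line joining mESC and NPC for each of 6 Htt lines. All 6 lines run the same way in 7 panels, and 5 of 6 do in Snord70 over Gm26287 and Snord92 over Snord53.

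Differences among the 6 Htt genotypes were then tested within each cell type. In mESC, 0 of 28 members passed in the test over 6 genotypes, beside 0.0566% of 1766 genes. An unadjusted edgeR p under 0.05 was reached by 0 members, and DESeq2 also called 0. In the pairwise mESC comparisons and the CAG slope 0 members were called by edgeR or DESeq2. An unadjusted edgeR p under 0.05 was reached by 2 members in Q50 against Q20 and by 0 in the others. The biological coefficient of variation was 37.9% in mESC and 17.3% in NPC in the fits without a block. In mESC the differences between replicates 1 and 2 correlated across 1766 genes at 0.398 to 0.502 in the 10 pairs of lines without Q20, and this shared difference is part of that variation. With the replicate number as a block, 29 of all genes but 0 members were called over 6 genotypes, and 2 members reached an unadjusted edgeR p under 0.05. In Q50 against Q20, 6 members reached it with the block. In the fit with no block that leaves out mESC Q50 replicate 2, 5 did, and 0 were called in either fit.

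In NPC, 14 of 26 members passed in the test over 6 genotypes, beside 37.2% of 441 genes, and 11 of them passed under all 4 scalings. The smallest p-values were those of Snord70, Snord71, Gm22858 and Snord61, which also passed with any 1 library left out. The number called ran from 9 without Q20 replicate 2 to 19 without KO replicate 2, and was 10 without the Q20 group.

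Snord70 in Nop58 stood at 1995 and 1832 CPM in WT and 1356 and 1804 CPM in KO. Its knock-in levels were 952 and 923 CPM (Q20), 2346 and 2645 CPM (Q50), 977 and 917 CPM (Q92) and 927 and 1057 CPM (Q111). Q20, Q92 and Q111 were low and Q50 was highest, with no overlap between Q50 and any other line. The edgeR adjusted p over 6 genotypes was 2.93e-05. Gm22858 in Wdr43 stood at 4538 and 3258 CPM in WT and 3600 and 3599 CPM in KO. Its knock-in levels were 3063 and 2889 CPM (Q20), 5159 and 5470 CPM (Q50), 2047 and 2025 CPM (Q92) and 1964 and 2106 CPM (Q111). Q50 was again highest, and Q92 and Q111 lowest (edgeR adjusted p = 8.74e-05).

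Snord71 in Ap1g1 stood at 2677 and 2130 CPM in WT and 1759 and 2134 CPM in KO. In the knock-in lines it was at 2853 and 2588 CPM (Q20), 3816 and 3604 CPM (Q50), 1243 and 1163 CPM (Q92) and 2125 and 2442 CPM (Q111). Q92 lay below all other lines and Q50 above them (edgeR adjusted p = 7.13e-05). Snord61 in Rbmx stood at 6429 and 5958 CPM in WT and 3803 and 4544 CPM in KO. In the knock-in lines it was at 3943 and 4407 CPM (Q20), 6636 and 6322 CPM (Q50), 3058 and 2634 CPM (Q92) and 3564 and 4091 CPM (Q111). WT and Q50 were high and Q92 lowest (edgeR adjusted p = 2.88e-04). On the CPM scale Q92 was the lowest line for 18 of 28 members, and Q50 the highest for 14. As a share of the members' own counts, which no scaling moves, Q92 was lowest for 2 and Q50 highest for 9. The TMM factors behind these CPM, from both cell types together, were 1.50 and 1.49 in the Q92 libraries, the highest of the NPC. They were 0.915 and 0.754 in the Q50 libraries, the lowest. The tests among NPC lines used other factors, estimated on NPC libraries alone. The part of the factors in these levels was not tested beyond the 4 scalings.

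**Figure D5:**
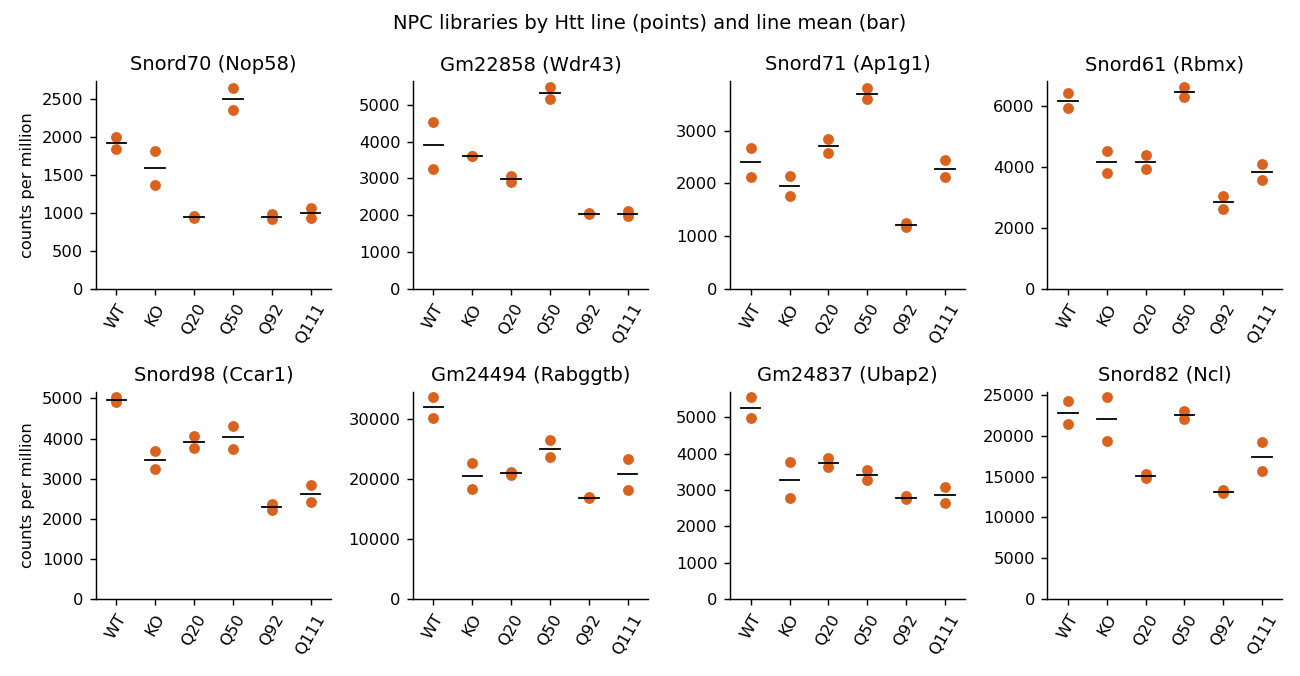
Level in CPM in each NPC library (points, 2 per line) with the line mean (bar), for 8 members, every axis starting at 0. In Snord70, Gm22858 and Snord71 both Q50 libraries lie above every other library.

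Between KO and WT NPC, 2 of 26 members were lower, beside 1.36% of 441 genes (0.227% higher, 1.13% lower). Gm24494 stood at 18409 and 22653 CPM in KO and 33743 and 30207 in WT, and fell by 0.56 ± 0.10 (SE, edgeR adjusted p = 0.00803). Gm24837 in Ubap2 stood at 2769 and 3760 CPM in KO and 5555 and 4977 in WT, and fell by 0.62 ± 0.14 (SE, edgeR adjusted p = 0.0241). Neither passed with library totals or the snoRNA sum as library size, where 0 members were called, nor without KO replicate 1 (edgeR adjusted p = 0.0810 and 0.268) or WT replicate 1 (0.0611 and 0.0748).

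Between Q20 and WT NPC, 3 members were lower, beside 12.7% of genes (8.62% higher, 4.08% lower): Snord70 at -0.83 ± 0.15 (SE, edgeR adjusted p = 0.00122), Gm24494 at -0.41 ± 0.10 (SE, edgeR adjusted p = 0.0170) and Snord82 at -0.40 ± 0.11 (SE, edgeR adjusted p = 0.0281). Snord70 passed under all 4 scalings and with each of the 4 libraries left out. Gm24494 did not pass with the snoRNA sum, without WT replicate 1 (edgeR adjusted p = 0.0514) or without either Q20 library (0.121 and 0.0531). The number called was 8 without WT replicate 2 and 1 without either Q20 library. With the snoRNA sum, 1 was higher and 1 lower.

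Against Q20, 7 members were higher in Q50, beside 17.7% of genes (9.07% higher, 8.62% lower), led by Snord70 at 1.17 ± 0.15 (SE, edgeR adjusted p = 3.21e-05) and Gm22858 at 0.59 ± 0.15 (SE, edgeR adjusted p = 0.0119). The others were Snord11, Gm25128 in Ddx39b (an RNA helicase), Snord66, Snord61 and Snord82. Gm22858 did not pass under all 4 scalings. Over 6 alternatives, leaving out a library and WT as the control aside, Gm22858 ran from 0.32 to 0.62 and was called in 4. With 1 library left out it ran from 0.50 to 0.67. Snord70 passed under all 4 scalings and with each library left out, whereas 1 member was higher and 2 lower with library totals, 4 were higher and 1 lower with the snoRNA sum, and 1 or 2 were called with any library of Q20 or Q50 left out. With WT as the control, Snord70 differed by 0.33 and did not pass (edgeR adjusted p = 0.284).

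In Q92, 5 members were lower than in Q20, beside 15.9% of genes (6.35% higher, 9.52% lower). Snord71 fell by 1.07 ± 0.15 (SE, edgeR adjusted p = 5.03e-05) and passed under all 4 scalings and with each library left out. Snord98 fell by 0.67 ± 0.13 (SE, edgeR adjusted p = 0.00213), but did not pass with library totals, without Q20 replicate 2 (0.0959) or without Q92 replicate 2 (0.0575). Gm25970, Snord61 and Snord59a were the others. The number called was 1 with library totals, 1 or 2 with any library of Q20 or Q92 left out, and 11 with WT as the control.

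In Q111, 4 members were lower than in Q20, beside 14.3% of genes (6.12% higher, 8.16% lower). Snord98 stood at 2429 and 2833 CPM against 3771 and 4067 in Q20, and fell by 0.65 ± 0.13 (SE, edgeR adjusted p = 0.00254). Gm22858 fell by 0.62 ± 0.15 (SE, edgeR adjusted p = 0.00993). Both passed under all 4 scalings, but Gm22858 did not with any 1 of the 4 libraries left out (0.0598 to 0.134), and Snord98 did not without Q20 replicate 2 (0.141). Gm24837 and Gm25970 were the others, and 0 or 1 members were called with a library left out. The slope on repeat length, as given in the titles, took the 8 knock-in libraries as independent, though each length is 1 line. Snord98 averaged 3919 CPM in Q20, 4030 in Q50, 2291 in Q92 and 2631 in Q111 NPC. The slope was called for Snord98 alone, beside 6.45% of 403 genes (2.73% higher, 3.72% lower). It was -0.07 ± 0.02 (SE) log2 units per 10 repeats (edgeR adjusted p = 0.0269). That call was lost with DESeq2 size factors, library totals, a replicate block, without the Q20 group, and without either library of Q20, Q92 or Q111 (0.0591 to 0.191 with a library left out).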

How the data were processed

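Small RNA was sequenced as single reads, per the labels' protocols. The authors deposited a single table of raw gene counts. CASAVA 1.8, STAR, HTSeq and GRCm38.p6 are named in the submitters' processing notes without roles, and counting settings and strand use are not given in the sources used here. Columns headed Q89 were taken for the Q92 samples, since the growth protocol gives that line 89 repeats. Of 55335 identifiers, 55154 matched GENCODE mouse release 21, which gave biotypes and positions.

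Counts were tested with edgeR 4.0.16 in R 4.3.3 (glmQLFit, glmQLFTest, TMM). Genes were kept by filterByExpr (at least 10 counts in a group's worth of libraries, 15 in all), and p-values adjusted by Benjamini and Hochberg over all genes tested. NPC against mESC used 24 libraries, comparisons of lines the 12 of a cell type, and slopes the 8 knock-in libraries. Fits that left samples out kept the genes of the full fit. The fits were tested on simulated data. Named members were the 4 markers of the class, the 10 most abundant, and those with the smallest p per direction among calls whose groups did not overlap (overlap not applied to slopes or the 6-genotype test), with those beside the count minimum and in hosts with 3 or more members. Others were chosen after their values were seen. The values of 1 member, which stays in all counts, are not reported here. The members and lists were chosen with earlier results of these data known. Alternatives were DESeq2 1.42.0 size factors and test, library totals, the snoRNA sum, no filter, a replicate block, and leaving out libraries or the Q20 group. A count of 3 corresponded to 1.36 to 4.23 CPM in mESC and 4.49 to 8.44 CPM in NPC.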

Additional observations from a re-analysis of the deposited data

Results flagged for a closer look

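For 14 of 140 combinations of a member and a line comparison, both libraries of the line lay above both controls in one cell type and below both in the other. They fell in 11 members, and the difference between cell types was not tested. The share among all genes was not counted, so the 14 cannot be read as a result about the members. The values are log2 ratios of mean CPM, NPC minus mESC. Against Q20, Q50 differed by 1.52 for Snord66, 1.35 for Snord71, 0.81 for Gm24494 and 0.52 for Snord59a, higher in NPC and lower in mESC. Q92 against Q20 differed by -0.80 for Snord53, -0.79 for Snord61, -0.66 for Snord59a and -0.28 for Snord110, lower in NPC and higher in mESC. Q111 against Q20 differed by 0.58 for Gm24339, 0.54 for Snord110, 0.52 for Snord66 and -0.66 for Snord88c. Q20 against WT differed by -0.78 for Gm25970, and KO against WT by -0.57 for Snord70. The 4 differences of Q50 against Q20 rest on the mESC Q50 libraries, of which replicate 2 had 48.5% of the members' counts in Snord82 and replicate 1 had 22.8%. Without replicate 2, the edgeR log2 changes of Q50 against Q20 in mESC were -0.94 for Snord66 and -0.80 for Snord71. They were -0.19 for Gm24494 and 0.02 for Snord59a. These fits scaled the mESC libraries alone, unlike the CPM. On the CPM scale, Snord59a in Q50 replicate 1, at 24314, still lay below both Q20 libraries, at 25213 and 25094. Groups of 2 libraries are below the size at which a single outlying library was looked for by test.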

How the results depend on the processing

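Counts are of members called. In NPC against mESC, 19 to 24 were called in all alternatives, and 20 to 24 with 1 library left out (24 without mESC Q50 replicate 2), but without a filter on low counts 4 were higher and 15 lower. In mESC every alternative gave 0, with 1 library left out too. Without the filter, the 6-genotype test in NPC gave 9, KO against WT 0, Q20 against WT 1, Q50 against Q20 1, Q92 against Q20 1, Q111 against Q20 0 and the CAG slope 0. With library totals, KO against WT gave 0, Q50 3, Q92 1 and the slope 0. With the snoRNA sum, KO against WT gave 0, Q92 3, Q111 7 and the slope 2. With DESeq2 size factors, Q111 gave 2 and the slope 0. The DESeq2 test gave 9 for KO, 5 for Q20, 8 for Q92 and 2 for Q111. With WT as the control, Q50 gave 3, Q92 11 and Q111 9. Without the Q20 group the slope gave 2. With 1 library left out, the NPC ranges were 9 to 19 (6 genotypes), 0 to 3 (KO), 1 to 8 (Q20), 1 to 2 (Q50), 1 to 2 (Q92), 0 to 1 (Q111) and 0 to 1 (slope). The cause of these moves was not tested. Filtering low counts again after leaving out a library, added after seeing the data, admits more genes (1289 to 1373 in NPC against mESC in place of 904) and gave 22 to 24, 9 to 21, 0 to 4, 1 to 8, 1 to 3, 1 to 9, 0 and 0. The members numbered 32 at a minimum of 10 counts and 28 at 50.

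The labels do not say what a replicate number marks. Differences between replicates correlated over 0.1 in the 10 mESC pairs of lines without Q20 (0.398 to 0.502), in 0 of 5 with Q20, and in 4 of 15 pairs in NPC, so the number was not taken to pair all libraries. With the replicate block, 22 members were called in NPC against mESC, 15 in the 6-genotype test in NPC, 2 for KO, 3 for Q20, 7 for Q50, 6 for Q92, 4 for Q111 and 0 for the slope, and 0 in every mESC comparison, where all genes called over 6 genotypes went from 1 to 29, and to 17 without the Q20 group.

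Ratios within a host, one replicate left out at a time, ran from -1.04 to -0.54 (Scarna9 over Gm24339), -3.49 to -2.02 (Gm22200 over Gm26109), -0.20 to 0.80 (Snord70 over Gm26287), -1.10 to -0.63 (Snord70 over Snord11), -1.43 to -0.90 (Gm26287 over Snord11), 0.77 to 1.97 (Gm22888 over Gm24837), 0.61 to 0.76 (Snord92 over Snord53), -0.99 to -0.87 (Snord92 over Gm22858) and -1.63 to -1.60 (Snord53 over Gm22858). Without the Q20 group, 5 lines remain and the exact test cannot pass; each ratio moved by less than its SD over lines.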
